A study of Mus musculus with 8 samples.

Results

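Interferon-stimulated genes are the effector arm of the antiviral response, and 45 of them were taken as a group by gene symbol: the IFIT, OAS, Mx, PYHIN, IRG and GBP families, the ISG15 system, the PARP9-DTX3L group and other restriction factors. Of the 45, 41 carried their symbol on the array, out of 19505 distinct symbols and 22206 transcript clusters (the array's gene-level probe groups). Ifi203, Ifi47, Ddx60 and Ifi44 were not matched and are not described. Each of the 41 lay on 1 cluster.

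The study asked whether blocking cyclooxygenase, prostaglandin E2 (PGE2) and its receptor EP4 changes the reprogramming of fibroblasts toward cardiac muscle. Mouse postnatal tail-tip fibroblasts (TTFs) in 8 cultures all carried the retroviral mixture GHMT, which encodes the cardiac transcription factors Gata4, Hand2, Mef2c and Tbx5, and total RNA of each was hybridised to 1 Clariom S Mouse array. TTF set 1 held 4 arrays, namely GHMT with no compound in its labels, GHMT with diclofenac (a cyclooxygenase inhibitor), with an EP4 antagonist, and with diclofenac plus PGE2. Set 2 held 4 arrays as well, GHMT, an EP4 antagonist, a TGFb inhibitor and a Wnt inhibitor. Compounds were added together with the viruses, and DMSO is listed as the vehicle. The sources used here name neither the inhibitors nor the strain, the doses or the harvest time. No array of untransduced fibroblasts was analysed here, so every value below comes from virus-exposed cells. Each inhibitor of set 2, diclofenac and diclofenac plus PGE2 had 1 array. Such a difference has no replicate check, and treatment and culture cannot be told apart. GHMT and the EP4 antagonist had 1 array in each set, and the labels do not say whether the sets are independent experiments.

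Type I interferons are secreted proteins that bind the receptor Ifnar1-Ifnar2 and activate the kinases Jak1 and Tyk2. These phosphorylate Stat2, which acts with Irf9 at the interferon-stimulated response element (ISRE) in front of the genes described here. The proteins made then block viral entry, RNA stability, translation and assembly, and several of them also sense foreign nucleic acids. Fibroblasts are a classical responding cell type.

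The ISRE is the sequence feature that the group is known for, so the bases before the start site of 6 members are shown, 5′ to 3′ on the gene's strand. Capitals mark every match to GAAANNGAAA on either strand (N is any base, and TTTCNNTTTC is the same motif read on the other strand). All come from the RefSeq table of GRCm38.p6. Each run holds 250 bases and ends at the last base before the start. Ifit1 (chr19:34640639-34640888, plus strand) and Ifit3 (chr19:34583279-34583528, plus strand) had 2 matches each. Isg15 (chr4:156200819-156201068, minus strand) had 3 overlapping matches, and Bst2 (chr8:71537473-71537722, minus strand) had 2. Ifi207 (chr1:173741810-173742059, minus strand) had 1. Oasl2 (chr5:114896684-114896933, plus strand) is shown because it had one of the largest differences of the group and no match in its window.
Ifit1: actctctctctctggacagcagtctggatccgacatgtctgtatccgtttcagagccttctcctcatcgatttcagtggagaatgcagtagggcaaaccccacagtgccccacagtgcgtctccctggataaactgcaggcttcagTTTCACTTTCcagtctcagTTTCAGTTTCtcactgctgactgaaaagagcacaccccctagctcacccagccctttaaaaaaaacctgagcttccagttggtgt
Ifit3: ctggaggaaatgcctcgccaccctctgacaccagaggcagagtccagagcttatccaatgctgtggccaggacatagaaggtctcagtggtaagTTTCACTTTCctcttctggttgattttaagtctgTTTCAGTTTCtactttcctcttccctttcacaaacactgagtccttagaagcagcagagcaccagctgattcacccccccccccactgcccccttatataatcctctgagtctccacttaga
Isg15: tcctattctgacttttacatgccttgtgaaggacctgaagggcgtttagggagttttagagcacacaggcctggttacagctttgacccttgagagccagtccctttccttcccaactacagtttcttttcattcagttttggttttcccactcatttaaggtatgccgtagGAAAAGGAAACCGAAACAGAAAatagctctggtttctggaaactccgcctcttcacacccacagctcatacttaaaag
Bst2: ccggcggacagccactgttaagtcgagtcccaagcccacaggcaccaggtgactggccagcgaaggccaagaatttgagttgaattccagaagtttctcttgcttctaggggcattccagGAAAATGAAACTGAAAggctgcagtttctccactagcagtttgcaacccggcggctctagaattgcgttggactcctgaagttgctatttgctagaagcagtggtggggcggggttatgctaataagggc
Ifi207: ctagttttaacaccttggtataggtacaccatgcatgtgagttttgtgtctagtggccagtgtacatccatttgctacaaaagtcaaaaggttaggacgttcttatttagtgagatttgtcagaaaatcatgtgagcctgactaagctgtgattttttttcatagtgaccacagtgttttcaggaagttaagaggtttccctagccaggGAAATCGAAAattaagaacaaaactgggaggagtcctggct
Oasl2: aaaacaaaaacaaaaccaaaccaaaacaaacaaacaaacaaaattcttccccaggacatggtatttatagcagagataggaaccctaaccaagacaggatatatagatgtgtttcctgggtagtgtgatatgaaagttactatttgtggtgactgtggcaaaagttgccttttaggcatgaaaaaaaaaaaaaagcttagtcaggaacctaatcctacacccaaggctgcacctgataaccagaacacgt

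The search used windows of 300 bases, 250 before and 50 after each start, and 31 of the 41 measured members were in the table. A GAAANNGAAA match was found in 19 of the 31 members (61.3%), against 1079 of all 27025 genes in the table (3.99%). The 33 matches in members, counted over all their listed starts, began between -188 and 19 bases from the start, with a median of -59, and 16 members had one within the 150 bases before it. Among the 24 members in the table that were at least 2-fold higher with both the TGFb and the Wnt inhibitor than with GHMT, 15 had a match (62.5%), as did 4 of the 7 other members. Ifit2, Herc6, Oasl2, Samd9l, Xaf1 and Lgals3bp were among those without one. The core of the gamma-activated sequence, TTCNNNGAA, which reads the same on both strands and is bound by Stat dimers, was found in 8 of the 31 members (25.8%) and in 9.55% of all genes. It occurred beside GAAANNGAAA in 6 members, and the matches overlapped in 2 of them, Bst2 and Ifitm3. A match is a run of letters and was not tested for binding.

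**Figure D1:**
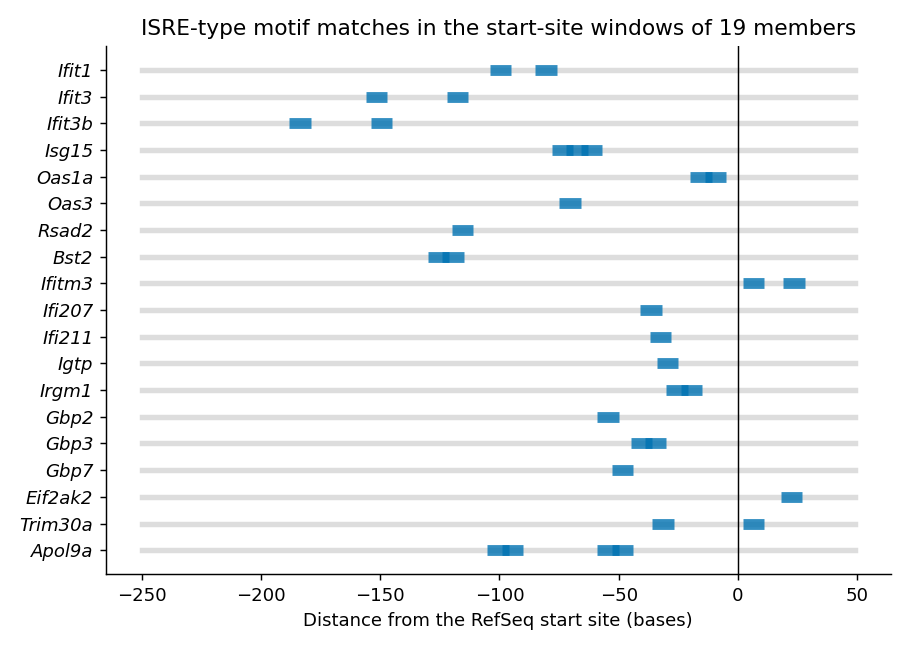
Position of each GAAANNGAAA match (blue) in the 300-base windows (grey) of the 19 members that had one. The x axis is the distance in bases from the RefSeq start site, where all listed starts of a gene share 1 line. Most matches lie before the start, between -188 and -5, while those of Ifitm3 and Eif2ak2 and one of Trim30a lie after it.

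Expression is given as the log2 values deposited for each array, on which a difference of 1 is a 2-fold difference. Each array holds 23 background probe sets, and their 95th percentile (5.73 to 5.99 in the 8 arrays) was taken as its background level. Of all clusters 43.7% to 45.7% exceeded it. Of the 41 members, 32 exceeded it in at least 1 array and 16 in all 8. At background in all 8 arrays were Oasl1, Oas1a, Oas2, Oas3, Mx1, Rsad2, Cmpk2, Gbp2 and Zbp1. In set 1, 26 members exceeded background with GHMT, 25 with diclofenac, 19 with the EP4 antagonist and 28 with diclofenac plus PGE2. In set 2, 20 did so with GHMT, 21 with the EP4 antagonist, and 31 with each of the TGFb and Wnt inhibitors. The median level of the 41 members was 6.25, 6.99, 5.74 and 6.80 in these arrays of set 1, and 5.83, 6.14, 9.61 and 9.66 in those of set 2. Over all clusters the medians stayed between 5.10 and 5.29. The highest member medians were those of the TGFb and the Wnt inhibitor.

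The fibroblast identity of the cultures was checked first. All 11 measured fibroblast markers, such as Col1a1 and Vim, exceeded background in all 8 arrays. All 6 endothelial markers and 13 of 14 macrophage and leukocyte markers, Ptprc and Csf1r among them, were at background in all 8. Of 7 markers of plasmacytoid dendritic cells, the main interferon-producing cells of blood, 4 were at background in all 8, and Tcf4, which other cells also express, read 14.25 to 15.61. Siglech exceeded background in 1 array, GHMT of set 1, at 5.91. Bst2, which also marks these cells, was left out of the 7 because it is a member. It read 8.00 with GHMT of set 2, 10.58 with the TGFb inhibitor and 11.80 with the Wnt inhibitor. Which cells gave the Bst2 signal was not tested. Cox6a2, a respiratory chain subunit also made in muscle, exceeded it in 3 arrays, at 6.21 with diclofenac, 5.76 with GHMT of set 1 and 5.99 with the TGFb inhibitor, against 5.05 with GHMT of set 2. The leukocyte exception was Lyz2, at 6.47 with the Wnt inhibitor and 4.51 to 5.75 in the other arrays of set 2. Of the transduced factors Hand2, Mef2c and Tbx5 lay far above background everywhere, and none of the 4 differed from GHMT by 2-fold with the TGFb or the Wnt inhibitor. Gata4 read 3.91 to 4.44, at background in every array, and whether its probes lie within the transduced sequence was not tested.

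**Figure D2:**
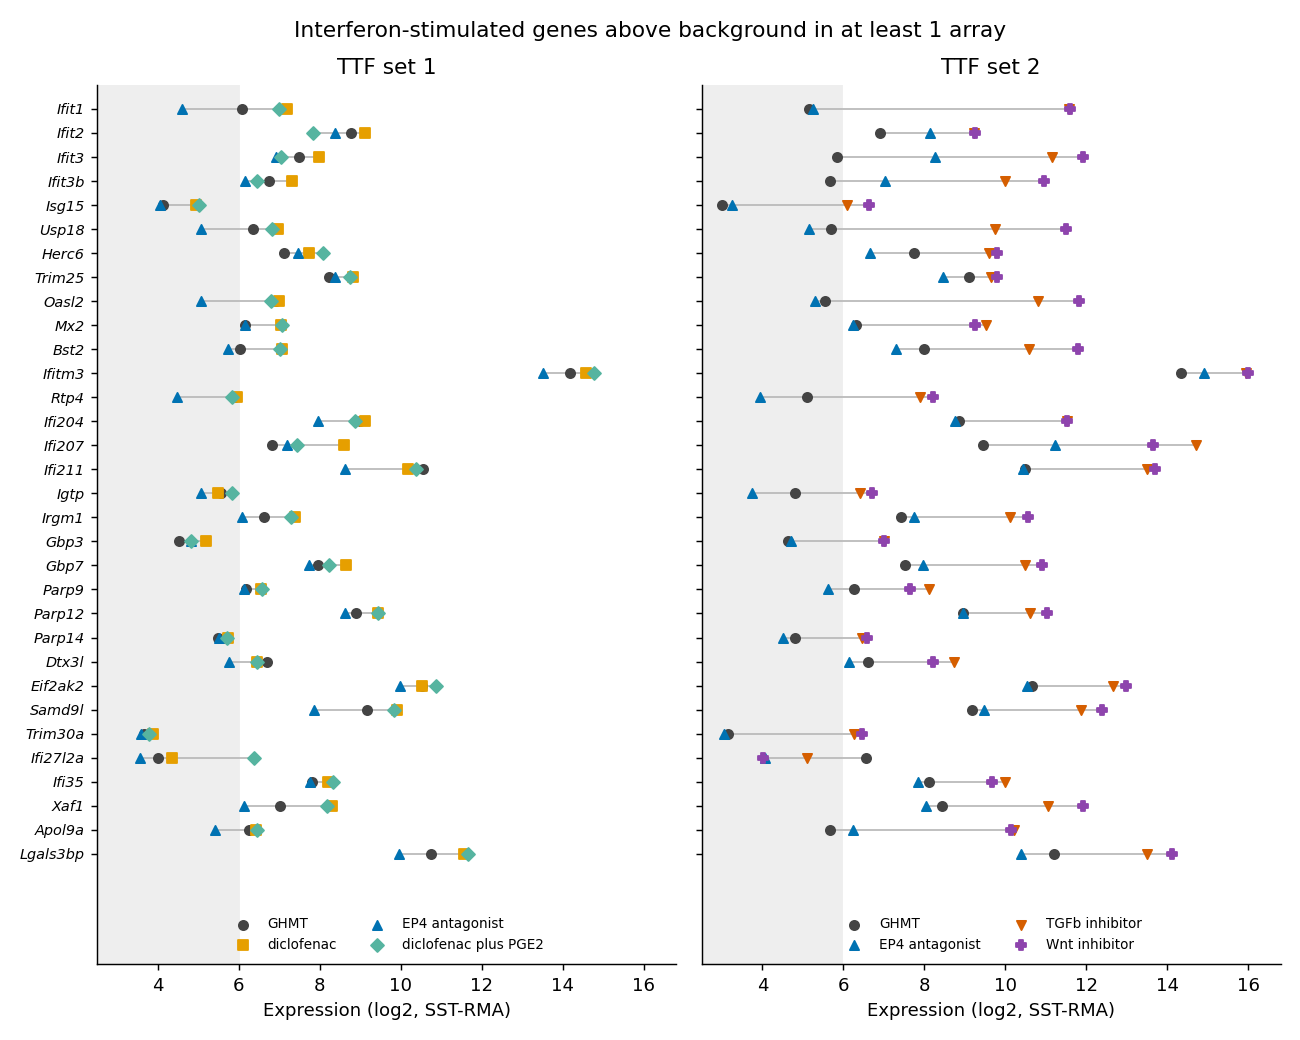
Level (log2) of the 32 members above background in at least 1 array, with 1 point per array and a line from the lowest to the highest array of the set. The grey area ends at the highest background level of that set's arrays. In set 2 the TGFb inhibitor (orange) and the Wnt inhibitor (purple) lie to the right of GHMT (dark circles) and of the EP4 antagonist (blue) in every gene but Ifi27l2a.

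With the TGFb inhibitor, 32 of the 41 members were at least 2-fold higher than in the GHMT array of set 2, and 1, Ifi27l2a, was at least 2-fold lower. Over all clusters 2.84% were that much higher and 2.52% that much lower. The members' differences ran from -1.46 to 6.43 with a median of 2.28, 40 of them above 0, while the median of all clusters was -0.01. With the Wnt inhibitor the count was again 32 higher and 1 lower, against 2.53% and 1.57% of all clusters. Here the differences ran from -2.54 to 6.46 with a median of 2.33, 39 above 0, and the median of all clusters was -0.02. With every value under background raised to that level, 26 members remained 2-fold higher with each inhibitor. Both contrasts use the same GHMT array, so they are not independent of each other. The members were chosen with results of these data known, and these counts are a description.

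**Figure D3:**
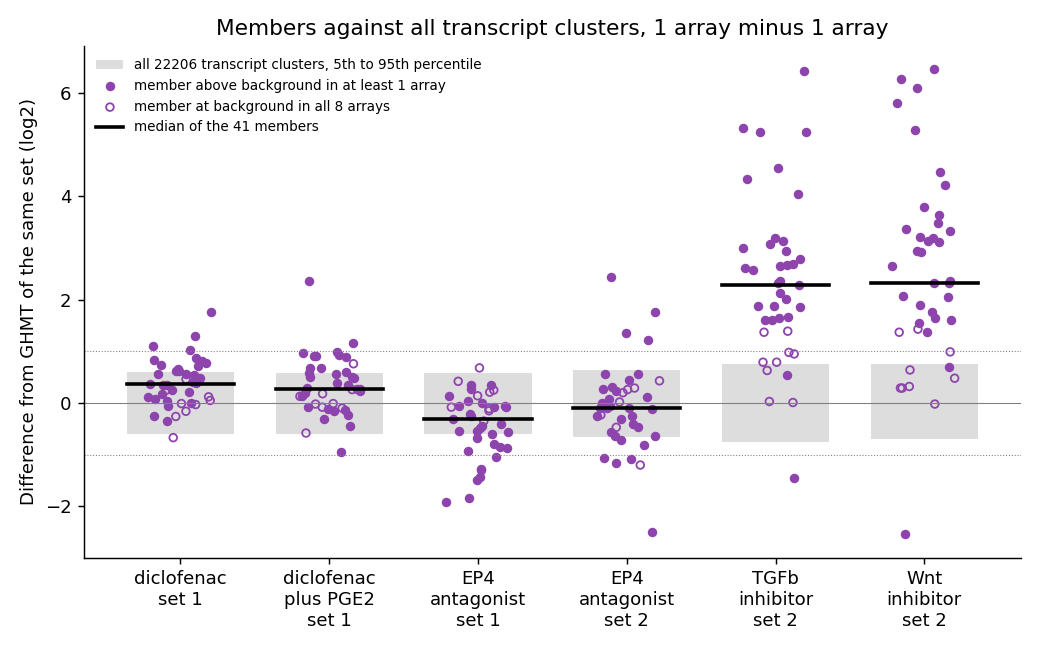
Difference of each of the 41 members from the GHMT array of its set (log2, y axis) for the 6 treated arrays, with filled points for members above background in at least 1 array and open points for the others. The grey boxes span the 5th to 95th percentile of all 22206 clusters, the black bars are the members' medians, and dotted lines mark 2-fold. The medians of 2.28 (TGFb inhibitor) and 2.33 (Wnt inhibitor) lie above the boxes, whose upper edges are at 0.75, and those of the other 4 arrays, -0.30 to 0.37, lie within them.

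The members follow by role. Levels are given in the order GHMT, diclofenac, EP4 antagonist and diclofenac plus PGE2 for set 1, then GHMT, EP4 antagonist, TGFb inhibitor and Wnt inhibitor for set 2. Folds are against GHMT of set 2. Where that array was at background, the fold is a lower bound against its background level and is written as "at least". Levels of different genes are not compared, since each cluster has its own probes.

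The IFIT proteins bind viral RNA that lacks host cap marks and stop its translation. All 4 were at least 2-fold higher with both inhibitors. Ifit1, the founding member, measured 6.08, 7.19, 4.60 and 7.00 in set 1 and 5.15, 5.26, 11.58 and 11.61 in set 2. Ifit1 was at least 51.4-fold higher with the TGFb inhibitor and at least 52.5-fold higher with the Wnt inhibitor, while GHMT and the EP4 antagonist of set 2 were both at background. Ifit2, which binds AU-rich RNA, measured 8.78, 9.13, 8.38 and 7.83 in set 1 and 6.91, 8.13, 9.23 and 9.24 in set 2. Its folds were 4.99 and 5.03, and its inhibitor arrays lay only just above the diclofenac array of set 1. Ifit3, which binds Ifit1, measured 7.49, 7.98, 6.93 and 7.05 in set 1 and 5.83, 8.26, 11.16 and 11.92 in set 2. Ifit3 was at least 38.4-fold and at least 65.1-fold higher. Ifit3b, its near-identical neighbour, measured 6.74, 7.31, 6.15 and 6.44 in set 1 and 5.67, 7.03, 10.00 and 10.96 in set 2. Ifit3b was at least 17.2-fold and at least 33.5-fold higher. The probes of Ifit3 and Ifit3b could share signal, so these are not separate observations.

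Isg15 is a ubiquitin-like protein that is attached to other proteins after interferon, Herc6 is the ligase that attaches it in mice, and Usp18 removes it and damps the receptor. Isg15 measured 4.12, 4.95, 4.06 and 5.02 in set 1 and 3.01, 3.25, 6.09 and 6.64 in set 2. It exceeded background only in the 2 inhibitor arrays, at least 1.14-fold and at least 1.67-fold above GHMT's background level. Usp18 measured 6.34, 6.96, 5.06 and 6.83 in set 1 and 5.70, 5.14, 9.74 and 11.50 in set 2. Usp18 was at least 14.4-fold higher with the TGFb inhibitor and at least 48.6-fold higher with the Wnt inhibitor. Herc6 measured 7.12, 7.74, 7.46 and 8.09 in set 1 and 7.74, 6.66, 9.61 and 9.79 in set 2, folds of 3.66 and 4.14. Trim25, a ubiquitin ligase that activates the RNA sensor RIG-I, ranged from 8.24 to 9.80 over the 8 arrays. Its folds of 1.45 and 1.61 made it the one member above background with a difference above 0 that stayed under 2-fold.

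Oligoadenylate synthetases (OAS) sense double-stranded RNA and activate RNase L, and the OAS-like proteins regulate sensing and viral growth. Oasl2 measured 6.91, 6.99, 5.07 and 6.80 in set 1 and 5.55, 5.30, 10.80 and 11.82 in set 2. Oasl2 was at least 29.9-fold and at least 60.7-fold higher with the TGFb and the Wnt inhibitor. The other 4 OAS genes, Oasl1, Oas1a, Oas2 and Oas3, stayed at background, with levels from 2.47 to 5.09. The family was thus seen through 1 gene only. The Mx proteins are dynamin-like GTPases that trap viral particles. Mx2 measured 6.16, 7.04, 6.16 and 7.07 in set 1 and 6.32, 6.23, 9.52 and 9.26 in set 2, folds of 9.19 and 7.67. Mx1 stayed between 2.89 and 4.41, at background in every array.

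Membrane factors act on entry and release. Bst2, or tetherin, which holds budding particles at the cell surface, measured 6.04, 7.07, 5.74 and 7.03 in set 1 and 8.00, 7.29, 10.58 and 11.80 in set 2. Bst2 was 5.98-fold higher with the TGFb inhibitor and 13.9-fold higher with the Wnt inhibitor. Ifitm3, which blocks fusion in endosomes, measured 14.19, 14.59, 13.52 and 14.78 in set 1 and 14.35, 14.92, 15.95 and 15.99 in set 2. Its folds were 3.03 and 3.12, and it lay far above background in all 8 arrays. Rtp4, a chaperone of membrane receptors with antiviral activity, measured 5.91, 5.95, 4.47 and 5.84 in set 1 and 5.11, 3.94, 7.90 and 8.22 in set 2. Rtp4 was at least 4.01-fold and at least 5.01-fold higher, and in the 6 other arrays it lay at background or just above it. The radical enzyme Rsad2 (viperin) and the kinase Cmpk2, adjacent genes whose products make an antiviral nucleotide, stayed between 3.58 and 4.63.

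PYHIN proteins bind DNA, and several take part in inflammasome and interferon responses. Ifi204 measured 9.00, 9.12, 7.96 and 8.87 in set 1 and 8.86, 8.77, 11.52 and 11.52 in set 2, 6.32-fold with either inhibitor. Ifi207 measured 6.83, 8.59, 7.18 and 7.44 in set 1 and 9.45, 11.22, 14.70 and 13.66 in set 2. Ifi207 was 38.1-fold higher with the TGFb inhibitor and 18.5-fold higher with the Wnt inhibitor. Ifi211 measured 10.54, 10.19, 8.62 and 10.38 in set 1 and 10.49, 10.44, 13.49 and 13.70 in set 2, folds of 8.00 and 9.25. All 3 measured PYHIN members were thus above background in every array. The PYHIN genes form a cluster of similar copies whose probes could share signal.

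The immunity-related GTPases (IRG) and guanylate-binding proteins (GBP) attack the membranes around intracellular microbes and respond to interferon gamma as well as to type I interferon. Irgm1, a regulator of the family, measured 6.62, 7.39, 6.08 and 7.29 in set 1 and 7.43, 7.74, 10.12 and 10.56 in set 2, folds of 6.45 and 8.75. Igtp, or Irgm3, measured 5.55, 5.49, 5.06 and 5.82 in set 1 and 4.81, 3.74, 6.42 and 6.71 in set 2. Igtp was at least 1.44-fold and at least 1.76-fold higher. Gbp3 measured 4.53, 5.19, 4.81 and 4.83 in set 1 and 4.64, 4.71, 7.01 and 7.01 in set 2, at least 2.16-fold with either inhibitor. Gbp7 measured 7.95, 8.66, 7.73 and 8.23 in set 1 and 7.53, 7.97, 10.48 and 10.90 in set 2, folds of 7.73 and 10.3. Gbp2 stayed between 3.67 and 5.70, at background in every array.

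The ADP-ribosyltransferases Parp9, Parp12 and Parp14 and the ligase Dtx3l, which pairs with Parp9, restrict viral replication. Parp9 measured 6.18, 6.55, 6.12 and 6.57 in set 1 and 6.27, 5.63, 8.12 and 7.64 in set 2, folds of 3.61 and 2.58. Parp12 measured 8.89, 9.44, 8.63 and 9.45 in set 1 and 8.96, 8.96, 10.62 and 11.03 in set 2, folds of 3.16 and 4.20. Dtx3l measured 6.69, 6.44, 5.76 and 6.46 in set 1 and 6.61, 6.14, 8.73 and 8.22 in set 2, folds of 4.35 and 3.05. Parp9 and Dtx3l, which share a start region in head-to-head arrangement, both had the higher of their inhibitor arrays with the TGFb inhibitor. Parp14 measured 5.48, 5.73, 5.52 and 5.71 in set 1 and 4.81, 4.51, 6.45 and 6.58 in set 2. Parp14 was at least 1.47-fold and at least 1.61-fold higher, being at background in the 6 other arrays.

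Eif2ak2, or PKR, the double-stranded RNA kinase that shuts down translation, measured 10.53, 10.53, 9.99 and 10.87 in set 1 and 10.66, 10.54, 12.67 and 12.98 in set 2, folds of 4.03 and 4.99. Samd9l, a restriction factor that blocks translation, measured 9.17, 9.90, 7.87 and 9.84 in set 1 and 9.19, 9.47, 11.86 and 12.38 in set 2, folds of 6.36 and 9.13. Both genes were above background in every array. Zbp1, a sensor of Z-form nucleic acids, stayed between 4.06 and 5.43, at background in every array.

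Of the other effectors, Apol9a, an apolipoprotein L homologue with a close copy (Apol9b) whose probes could share signal, measured 6.25, 6.42, 5.40 and 6.44 in set 1 and 5.67, 6.24, 10.21 and 10.15 in set 2. Apol9a was at least 19.9-fold and at least 19.1-fold higher. Xaf1, which promotes cell death, measured 7.01, 8.31, 6.14 and 8.17 in set 1 and 8.44, 8.03, 11.06 and 11.93 in set 2, folds of 6.15 and 11.2. Lgals3bp, a secreted galectin-binding protein, measured 10.75, 11.56, 9.96 and 11.66 in set 1 and 11.21, 10.40, 13.49 and 14.13 in set 2, folds of 4.86 and 7.57. In both genes the EP4 antagonist was the lowest array of either set. Ifi35, a partner of Nmi, measured 7.82, 8.20, 7.75 and 8.32 in set 1 and 8.11, 7.85, 9.99 and 9.66 in set 2, folds of 3.68 and 2.93. Trim30a, a ubiquitin ligase, measured 3.65, 3.87, 3.58 and 3.78 in set 1 and 3.14, 3.05, 6.27 and 6.47 in set 2. Trim30a exceeded background only with the 2 inhibitors, at least 1.30-fold and at least 1.49-fold.

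Ifi27l2a, a small membrane protein, was the exception of the group. It measured 4.00, 4.34, 3.56 and 6.37 in set 1 and 6.56, 4.07, 5.10 and 4.02 in set 2. It exceeded background in 2 arrays, GHMT of set 2 and diclofenac plus PGE2 of set 1. Against the background level of the TGFb and Wnt inhibitor arrays, GHMT of set 2 was at least 1.51-fold and at least 1.55-fold higher, the reverse of the other members.

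Both inhibitor arrays lay above all 6 other arrays, of both sets, in 34 of the 41 members, against 6.01% of all clusters. They did so by at least 2-fold in 27 of the 41, against 0.45% of all clusters, which is 100 clusters. The 7 members that did not meet the first rule were Ifi27l2a and 6 genes at background everywhere, Oasl1, Oas3, Mx1, Rsad2, Cmpk2 and Zbp1. Of the 100 clusters 92 carried a symbol, of which 27 were members and 21 were on the other gene lists used here. Among those 21, Thy1 was a fibroblast marker, and the rest were on the interferon lists described below.

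The inhibitor arrays were also set against each other. With the Wnt inhibitor 3 of 41 members were at least 2-fold higher than with the TGFb inhibitor, against 2.26% of all clusters, and 3 were at least 2-fold lower, against 1.95%. The 3 higher were Usp18 by 1.76, Bst2 by 1.22 and Oasl2 by 1.02 on the log2 scale. The 3 lower were Ifi207 (difference -1.04), and Zbp1 and Ifi27l2a (both -1.08), the last 2 at background in both arrays. The median difference was 0.20 over the members and -0.01 over all clusters.

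**Figure D4:**
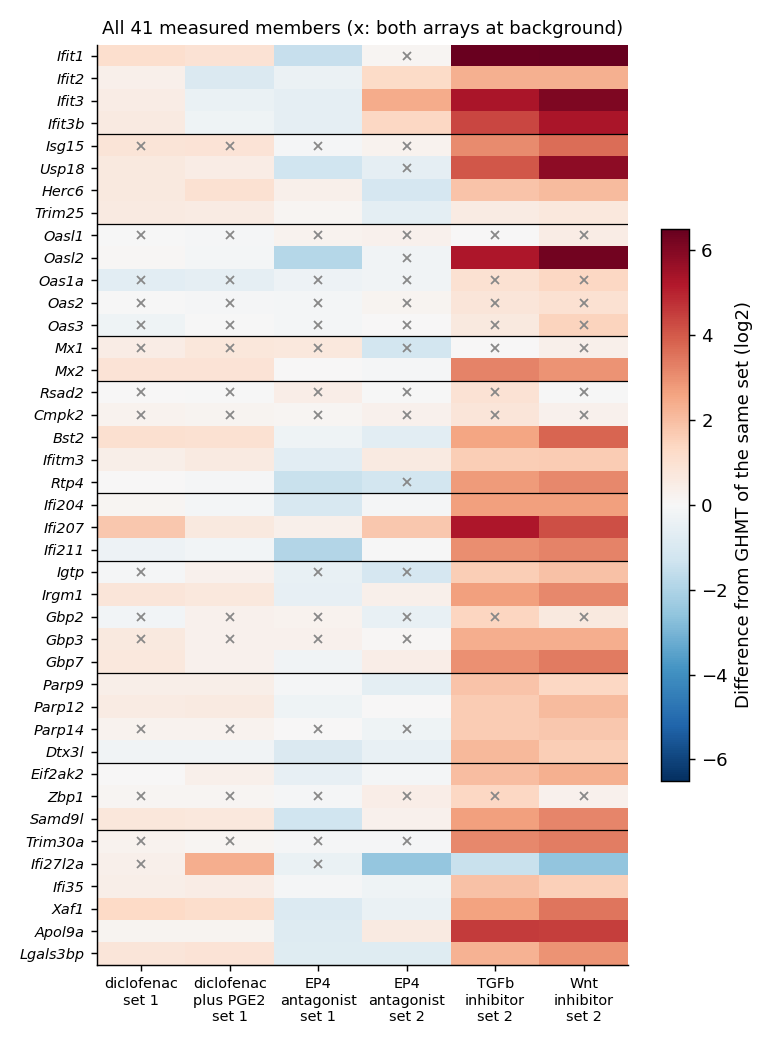
Difference from the GHMT array of the same set (log2, colour scale) for the 41 measured members, ordered by role with lines between the roles, in the 6 treated arrays. A cross marks a pair of arrays that were both at background. The last 2 columns (TGFb and Wnt inhibitor) are red in nearly every gene, and Ifi27l2a is blue in both. The columns of set 1 and of the EP4 antagonist are paler. In set 1, 32 members were above 0 with diclofenac and 28 with diclofenac plus PGE2, and 30 were below 0 with the EP4 antagonist. In set 2, 17 were above and 23 below 0 with the antagonist.

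The remaining treatments act on the prostaglandin axis. Cyclooxygenase makes the precursor of PGE2, which diclofenac lowers, and EP4 is one of the receptors of PGE2. With diclofenac, 4 of 41 members were at least 2-fold higher than GHMT of set 1, against 1.04% of all clusters, and 0 were at least 2-fold lower, against 0.766%. The 4 were Ifi207 (difference 1.76), Xaf1 (1.30), Ifit1 (1.11) and Bst2 (1.03). The median over the 41 was 0.37, with 32 above 0, while 47.9% of all clusters were above 0. At 1.5-fold 13 members were higher, against 5.46% of all clusters, and 1 was lower, against 5.41%.

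Adding PGE2 to diclofenac gave 1 member at least 2-fold higher than diclofenac alone, against 0.847% of all clusters, and 2 at least 2-fold lower, against 1.31%. Ifi27l2a was the higher one (2.03, at least 1.30-fold above the diclofenac array's background), and Ifit2 (-1.30) and Ifi207 (-1.15) were the lower ones. The median was -0.04. At 1.5-fold 1 member was higher, against 4.95%, and 4 were lower, against 5.48%. Against GHMT, diclofenac plus PGE2 gave 2 members higher, against 0.892%, and 0 lower, against 0.923%. These were Ifi27l2a (2.37) and Xaf1 (1.16), with a median of 0.28. At 1.5-fold 13 members were higher, against 5.04%, and 1 was lower, against 5.42%. The contrasts of set 1 share arrays, so their values stand side by side only. Between the diclofenac cultures with and without PGE2, 19 members were above 0 and 22 below, while 50.3% of all clusters were above 0. Ifit3 differed by -0.93, Ifit3b by -0.87, Ifit1 by -0.19, Bst2 by -0.04 and Lgals3bp by 0.10.

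With the EP4 antagonist of set 1, 0 of 41 members were at least 2-fold higher than GHMT, against 0.815% of all clusters, and 7 were at least 2-fold lower, against 0.784%. The 7 were Ifi211 (-1.92), Oasl2 (-1.84), Ifit1 (-1.48), Rtp4 (-1.44), Samd9l (-1.30), Usp18 (-1.28) and Ifi204 (-1.04). The median was -0.30, with 30 of 41 below 0. At 1.5-fold 1 member was higher, against 5.01%, and 13 were lower, against 5.36%. With values under background raised to that level 3 of the 7 remained, since Ifit1, Usp18, Oasl2 and Rtp4 were at background with the antagonist. In set 2, 4 members were at least 2-fold higher with the antagonist, against 1.29%, and 5 at least 2-fold lower, against 1.45%. The higher ones were Ifit3 (2.43), Ifi207 (1.77), Ifit3b (1.36) and Ifit2 (1.22). Lower were Ifi27l2a (-2.49), Mx1 (-1.20), Rtp4 (-1.17), Herc6 (-1.08) and Igtp (-1.07), of which Mx1, Rtp4 and Igtp were at background in both arrays. The median was -0.09. At 1.5-fold 4 members were higher, against 6.18%, and 9 were lower, against 6.63%. Rtp4 was the one member at least 2-fold lower in both sets.

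The EP4 antagonist was the only treatment with an array in each set, so it was tested over the 2 sets with limma. No cluster passed a Benjamini-Hochberg adjusted p of 0.05, 0% of 22206, and 0 members did. Unadjusted, 144 clusters (0.648%) had a limma p under 0.05, among them 0 members higher and 2 lower. Rtp4 was lower by the antagonist at -1.31 ± 0.43 (log2 difference ± SE, n = 2 arrays per group, limma adjusted p = 1), Ifi27l2a at -1.47 ± 0.75 and Oasl2 at -1.05 ± 0.49, and Ifi207 was at 1.06 ± 1.27, all with limma adjusted p = 1. With the TTF set as a block 0% of clusters passed as well, and 1243 (5.6%) had an unadjusted limma p under 0.05. Among these were 1 member higher and 8 members lower. The smallest limma adjusted p of a member was 0.531, that of Rtp4. The block left the differences as they were, with SEs of 0.20 for Rtp4, 0.47 for Ifi27l2a, 0.38 for Oasl2 and 0.35 for Ifi207. Among the GHMT and EP4 antagonist arrays Rtp4 exceeded background only in GHMT of set 1. Over the 41 members the median difference was -0.14, with 29 below 0. Single arrays were also left out. Ifi27l2a differed by -2.75 without GHMT replicate 1, and Ifi207 by 3.08 without EP4 antagonist replicate 1. Ifi27l2a was at background in both antagonist arrays (3.56 and 4.07). GHMT of set 2 was at least 1.67-fold above the background level of the antagonist array of its set. In both fits 1 group had a single array, which was assumed to vary like the pair of the other group, and 1 residual degree of freedom was left. The sets lie unequally in the groups of such fits. The members' median ran from -0.25 to -0.075 over the 4 fits that left out 1 array.

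Pooling the arrays with PGE2-EP4 signalling blocked (diclofenac and both EP4 antagonist arrays) against those with it open (both GHMT arrays and diclofenac plus PGE2), 3 against 3, limma called 0% of clusters, with 469 at an unadjusted p under 0.05. With the TTF set as a block it called 84 clusters, 0.378%, and 0 of these were members. The smallest limma adjusted p of a member in that fit was 0.323, for Ifi27l2a at -1.65 ± 0.52 (SE, n = 3 arrays per group). Each group pools different treatments, which are not replicates of each other, so the SE also holds differences between treatments. The members' median difference was -0.15. It was 0.035 without EP4 antagonist replicate 1, -0.0017 without diclofenac plus PGE2 and -0.305 without diclofenac, so its sign rested on single arrays.

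Set 2 was compared with set 1 at matched treatment, from the GHMT and EP4 antagonist arrays, with a treatment term in limma. Of all clusters 7.45% were higher and 7.8% lower in set 2. Of the 41 members 4 were called in each direction, which is not read as a trait of the members. Ifi207 was higher by 3.33 ± 0.35 (limma adjusted p = 0.0115), Bst2 by 1.76 ± 0.21 (limma adjusted p = 0.0148), Xaf1 by 1.66 ± 0.22 (limma adjusted p = 0.0173) and Irgm1 by 1.24 ± 0.26 (limma adjusted p = 0.0365), with n = 2 arrays per set. The 2 arrays of a set were cultures of that set under different treatments, and 1 residual degree of freedom was left. These p-values measure the spread between such cultures, not between fibroblast sets. For these 4 higher members, every array of GHMT or EP4 antagonist in set 2 lay above both of set 1. The 4 lower members, Isg15, Igtp, Oas1a and Parp14, were at background in all 4 arrays. The median over all clusters differed by -0.18 between the sets as deposited and by -0.01 after quantile normalisation. With that normalisation 7.09% of clusters were called higher and 6.84% lower. The same 4 members were higher there, with Ifi27l2a in addition. Ifit2, above background in all 4 arrays, was lower by it at -1.26 ± 0.33 (limma adjusted p = 0.029), and of the 4 lower members Igtp alone was still called.

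Other genes of the interferon system were taken from lists, also drawn up with earlier results known. Of 10 interferon genes, including Ifnb1 and Ifna5, 9 were at background in all 8 arrays and 0 differed by 2-fold with either the TGFb or the Wnt inhibitor. Ifna5 was the exception, at 7.24 to 7.79 in set 1 and at 6.29, 6.37, 6.46 and 6.52 in set 2. Of 19 measured receptor and signalling genes 4 were at least 2-fold higher with the TGFb inhibitor and 3 with the Wnt inhibitor, and 0 were 2-fold lower. Irf7, the factor that amplifies interferon production and is itself induced, was highest by difference, at 5.16, 6.29, 4.53 and 5.82 in set 1 and 5.52, 4.80, 10.86 and 11.53 in set 2. Stat2 differed by 3.33 and 3.81 on the log2 scale, Irf9 by 2.16 and 2.45, and Irf1 by 1.21 with the TGFb inhibitor. The receptor subunits Ifnar1 (-0.54 and -0.23) and Ifnar2 (0.25 and 0.36) differed by less than 2-fold.

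Of 15 measured genes of nucleic acid sensing, 5 were at least 2-fold higher with each inhibitor, 4 of them above background, and 1 was 2-fold lower with the TGFb inhibitor and 0 with the Wnt inhibitor. The higher 4 were Ifih1 (3.01 and 3.68), Ddx58 (2.92 and 3.32), Tlr3 (1.73 and 2.07) and Adar (1.48 and 2.09). The lower one was Samhd1, an enzyme that breaks down nucleotides, at 11.03 with GHMT of set 2 and 10.03 with the TGFb inhibitor. Of 48 other induced genes 22 were at least 2-fold higher with each inhibitor, among them Irgm2 (3.83 and 5.14) and Slfn5 (3.52 and 3.84), with medians of 0.92 and 0.93. Ifi30 (-1.11 and -0.19), a lysosomal thiol reductase, was 2-fold lower with the TGFb inhibitor, and 0 of the 48 were so with the Wnt inhibitor. Of 15 genes of MHC class I presentation, 10 were higher with the TGFb inhibitor and 9 with the Wnt inhibitor, and 0 were 2-fold lower with either, with medians of 1.35 and 1.54. H2-K1, a classical heavy chain, differed by 1.95 and 1.82, and H2-T23 by 2.25 and 1.77. The members' own medians, 2.28 and 2.33, were the highest of these lists.

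**Figure D5:**
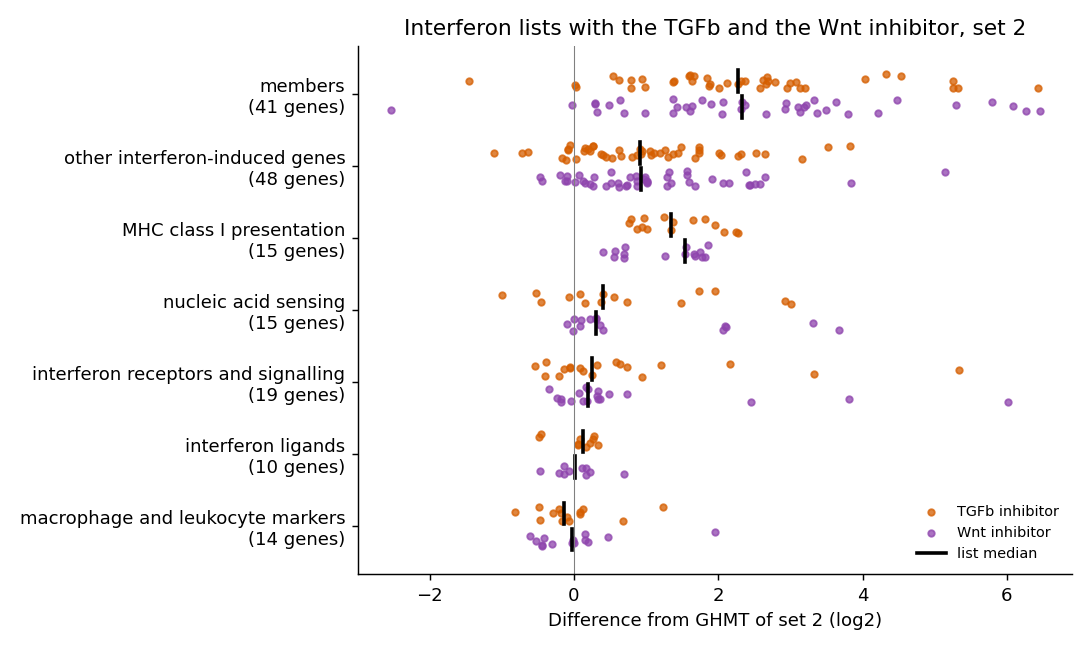
Difference from the GHMT array of set 2 (log2, x axis) for the 41 members and for 6 other lists, with 1 point per gene for the TGFb inhibitor (orange) and the Wnt inhibitor (purple) and a black bar at each list's median. The medians fall from 2.28 and 2.33 in the members to 0.13 and 0.02 in the interferon genes themselves, and the leukocyte markers lie at -0.14 and -0.02.

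Other values moved with the inhibitor arrays. Of the 11 fibroblast markers, 3 were at least 2-fold higher and 5 at least 2-fold lower with the TGFb inhibitor, and 2 higher and 0 lower with the Wnt inhibitor. The summed level of the 14 leukocyte markers, on the log2 scale, was 7.61, 7.52, 7.72 and 7.93 in set 2 and 7.81 to 8.17 in set 1. Ptprc, Csf1r and the other defining leukocyte markers except Lyz2 were at background in both inhibitor arrays. The part of fibroblast state in these differences was not tested, and in bulk RNA a change in the share of responding cells cannot be told apart from a change in RNA per cell.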

How the data were processed

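Total RNA of 8 cultures was measured on 1 Clariom S Mouse array each. The authors deposited log2 values normalised by SST-RMA in Affymetrix Expression Console 1.4, per the series' design text and the submitters' processing notes; the sources used here do not state the build, a filter, or whether the sets were normalised together. Of 28846 rows, 22206 were transcript clusters and 6640 control probe sets. Symbols came from the platform annotation (19572 clusters); the cluster with the highest mean was used. The members and all lists were chosen with earlier results of these data known. Single-array contrasts were counted at 2-fold without a test. The other contrasts used limma 3.58.1 (lmFit, eBayes) under R 4.3.3. These tests were two-sided, adjusted after Benjamini and Hochberg over all clusters and called at 0.05. The limma code was also run on simulated data with equal groups, where a set effect was added only for the blocked fit. Fits with a left-out array were not simulated. Described in full are members at least 2-fold from their set's GHMT with the higher array above background, or 2-fold apart between GHMT arrays. Of the other lists up to 4 genes per contrast were eligible to be named. Samhd1 and Ifi30 (with the TGFb inhibitor), Siglech and Cox6a2 were named after their values were seen.

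The titles attach the replicate number to the fibroblasts, and it was used as a block in an alternative fit. Arrays of the same set correlated at 0.986 to 0.995 and those of different sets at 0.974 to 0.984. Same-numbered GHMT and EP4 antagonist arrays deviated together from the mean of their group (r = 0.724 across clusters), so the numbers pair the arrays. P-values measure the spread between these arrays, whose number limits the precision. Promoter windows were RefSeq's for GRCm38.p6. Alternatives covered normalisation, centring, the background level, the fold threshold, the prior, the block and left-out arrays.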

Additional observations from a re-analysis of the deposited data

Results flagged for a closer look

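In 19 of the 41 members the EP4 antagonist array differed from GHMT in opposite directions in the 2 TTF sets. Of all clusters, 47.8% were above 0 with the antagonist in set 1 and 48.7% in set 2. The share of all clusters with opposite directions was not computed, so the count of 19 is not read as a trait of the members. The 6 given here were at least 2-fold apart in 1 of the sets with the higher array above background, and the other 13, Apol9a among them (-0.85 and 0.57), were not. The differences are on the log2 scale, each from 1 array against 1. Ifit3 differed by -0.56 in set 1 and by 2.43 in set 2, a gap of 2.99. For Ifit3b, whose probes may share signal with those of Ifit3, the differences were -0.59 and 1.36, a gap of 1.95. For Ifit2 they were -0.40 and 1.22, a gap of 1.62. Ifit1 differed by -1.48 and 0.11, a gap of 1.59, but was at background in both arrays of set 2. For Samd9l the differences were -1.30 and 0.28, a gap of 1.58. Herc6 ran the other way, with 0.34 in set 1 and -1.08 in set 2, a gap of -1.42. The difference between the sets was not tested for any of them, since each treatment had 1 array per set.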

How the results depend on the processing

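Under the listed alternatives the limma counts and the differences of the named tested members were recomputed. So were the single-array member counts and medians, the members' inhibitor differences and the number above background. The members' other single-array differences, the comparison of the inhibitor arrays with all other arrays, the other lists and the promoter counts were not. The 246 inhibitor differences of the 41 members under 3 settings moved by at most 0.24. Changes of sign were counted only for differences of at least 2-fold, and there were 0. Averaging all clusters of a symbol, 1 of the 3 settings, could change nothing, since each member lay on 1 cluster. For the EP4 antagonist, the pairing by replicate block called 0 clusters, or 8 with a trend and robust prior, 1 above background and 31 after quantile normalisation. Leaving out single arrays called 1 to 25 clusters and 0 to 1 members, and Ifi207 ranged from -0.96 (without EP4 antagonist replicate 2) over -0.25 (without GHMT replicate 1) to 3.08. Blocked against open, the replicate block called 84 clusters, 143 with the trend and robust prior, 110 above background and 78 after quantile normalisation, left-out arrays gave 0 to 3, and Ifi207 ranged from -0.022 (without EP4 antagonist replicate 2) to 2.00 (without EP4 antagonist replicate 1). Members called were 0 in all of these blocked fits. Between sets, the trend and robust prior called 5886 clusters against 3387, and above background 4 members against 8 were called, as fewer members were tested. Leaving out an array there leaves no residual degrees of freedom and was not run.

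At 1.5-fold the member counts (higher, then lower) were 13 and 1 for diclofenac, 13 and 1 for diclofenac plus PGE2 against GHMT, 1 and 13 for the EP4 antagonist in set 1, while 4 were lower with PGE2 added to diclofenac and 9 with the antagonist in set 2. Quantile normalisation gave 4 and 1 for diclofenac plus PGE2 against GHMT and 3 lower for the antagonist in set 2. Above background, 2 were lower there. With values under background raised to it, an alternative chosen after seeing the data, 0 were higher with PGE2 added, 1 with diclofenac plus PGE2, 3 lower with the antagonist in set 1, 1 in set 2, and 0 with the TGFb and 0 with the Wnt inhibitor. The cause of these changes was not tested. The number of members above background was 32 to 35 at other background levels.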

Other observations

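Beyond the members, the interferon lists and the marker lists, 44 named genes had both the TGFb and the Wnt inhibitor array at least 2-fold above all 6 other arrays. Some were chosen for naming after their values were seen. Lpl, the lipoprotein lipase, lay 2.05 above the highest other array on the log2 scale by its lower inhibitor array, Gpnmb, a glycoprotein of phagocytic and pigment cells, 2.03, Id1, a transcriptional target of BMP signalling, 1.94, and Lgals3, a galectin, 1.51. Trim30d, a relative of Trim30a, lay 1.72 above. Each inhibitor had 1 array, and these values have no test.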
